A study of Capra hircus with 12 samples.

Results

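HOX genes encode homeodomain transcription factors that lie in 4 clusters, named A to D, and that are numbered within each cluster by paralogue. All genes whose symbol consisted of HOX, a cluster letter and a paralogue number were taken, which gave 37 of the 20326 genes in the table, 11 in cluster A, 9 in B, 9 in C and 8 in D. In an annotation of the goat genome (ARS1.2, used for names and neighbours only) each cluster lay on 1 chromosome with its members in the order of their numbers. The RNA came from secondary hair follicles of cashmere goats (Capra hircus), the follicles that make the fine undercoat, at an age of 1.5 years. Follicles had been taken in 6 months of the year: in May and September for anagen (the stage of hair growth), in November and December for catagen (the stage of regression) and in February and March for telogen (the stage of rest). Each month gave 1 male and 1 female library, so there were 4 libraries per stage and 12 in all. As each stage was taken in its own months, stage cannot be told apart from season or date of collection. No treatment, strain or mutation is named in the labels, and whether an animal was sampled in more than 1 month is not given, so the p-values below describe spread among these libraries. All levels below are the values deposited under the heading TPM, a unit that divides by transcript length and so allows genes to be compared, and all changes are differences of log2(TPM + 1).

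In the embryo, HOX genes are switched on along the body axis in the order of their places in the cluster, low numbers towards the head and high numbers towards the tail, and many keep a record of body position in adult skin. They bind DNA together with cofactors of the PBX, MEIS and PKNOX families, and Polycomb and Trithorax proteins keep them off or on. HOXC13 stands apart in hair: it is made in the matrix and differentiating hair shaft, switches on hair keratin genes, and its loss in humans or mice leaves hair and nails defective. In mouse skin, genes of the Hoxc cluster in the dermal papilla have been tied to regional differences in hair regrowth.

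The labelled tissue carried the markers of hair follicles. The 9 measured outer root sheath and basal epithelial genes summed to 13514 to 17248 TPM in anagen, 11033 to 16140 in catagen and 7757 to 10282 in telogen, and the 5 measured inner root sheath genes to 16190 to 20807, 12379 to 18722 and 3589 to 12185. Most of the first sum came from KRT5 and KRT14 (means 5491 and 5205 TPM). Its 9 genes did not move together: 3 were higher and 4 lower in anagen against telogen (backgrounds 23.7% and 29.2%). Epidermis was present as well. The 6 measured interfollicular epidermis genes summed to 2149 to 4427 TPM in anagen, 1919 to 2906 in catagen and 2365 to 3444 in telogen. The telogen libraries stood apart as a group. Transcripts of the mitochondrial genome took 1.53% to 2.42% of the signal in anagen, 2.07% to 3.51% in catagen and 4.63% to 11.8% in telogen, the lowest telogen value being that of the March male, whose score on the first principal component of all genes was 22.97, between 52.4 to 56.4 for the other 3 telogen libraries and -35.7 to -6.82 for anagen and catagen. The part these differences play in the changes below was not tested as a cause. Values without the March male are given where named. An alternative analysis rescaled the libraries to the same sum without mitochondrial and ribosomal protein genes. Of the HOX calls between stages given below, only that of HOXB6 in anagen against telogen was lost under it (0.43, adjusted p = 0.0750 by limma). In bulk tissue, fewer cells of a type and less RNA per cell cannot be told apart.

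HOXC13 was the most abundant HOX transcript in 12 of 12 libraries. It averaged 126 ± 27.2 TPM (SD, n = 12) and made up 32.1% to 62.4% of the summed HOX signal, 55.1% on average. It lay 4.47 to 14.5 times above the second member, which was HOXC6 in 8 libraries and HOXB7 in 4. Among all genes it ranked between 689 and 1634 of 20326. The other 3 members of paralogue 13, HOXA13, HOXB13 and HOXD13, which pattern limbs, tail and gut end in the embryo, reached a sum of means of only 0.741 TPM, less than 1 TPM for the 3 together.

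**Figure D1:**
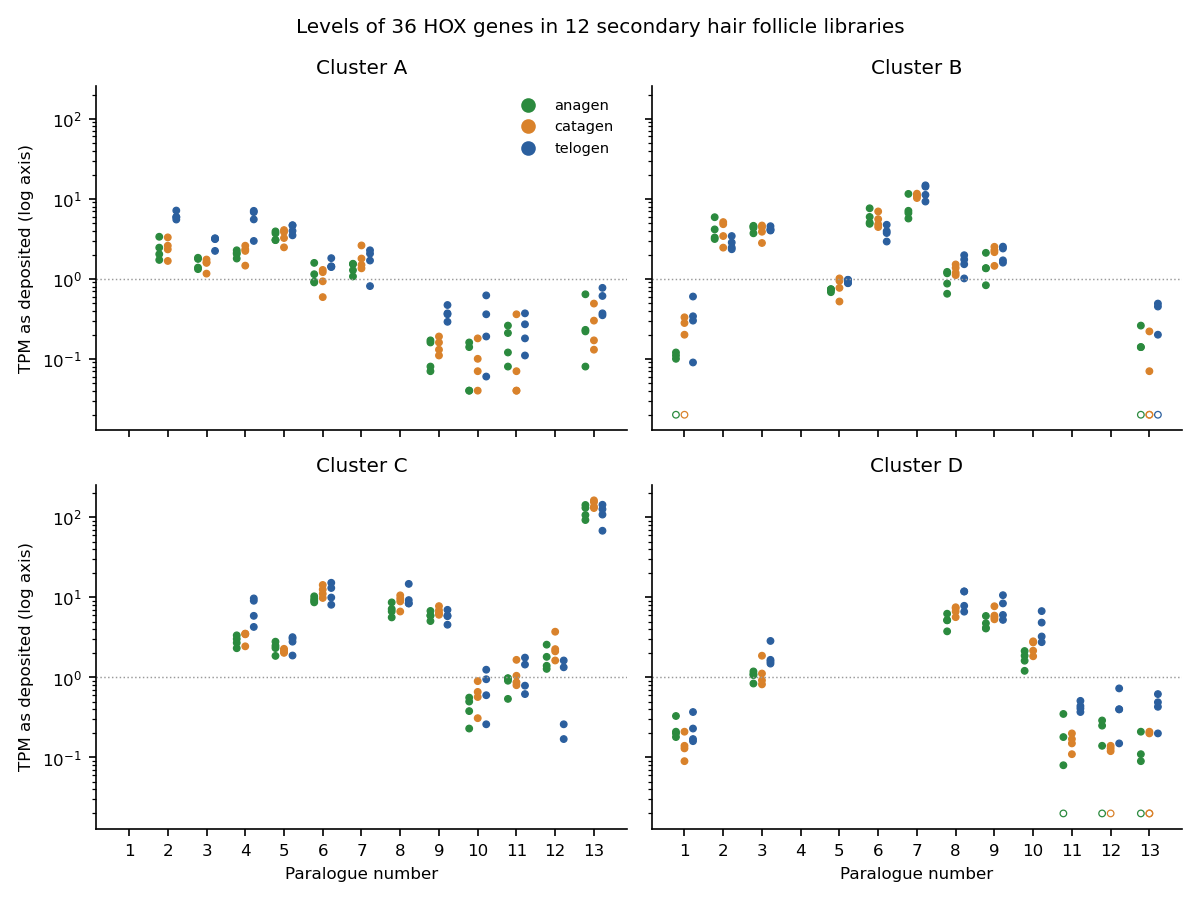
Level of 36 HOX genes by cluster and paralogue number in anagen, catagen and telogen, 1 point per library on a log axis of TPM as deposited; open points at the bottom are libraries listed at 0 and the dotted line marks 1 TPM. HOXC13 lies at 68.1 to 163 TPM at least 4.47 times above any other member of its library, members 4 to 9 of clusters B, C and D hold most of the remaining signal, and HOXA9 to HOXA13 and HOXD11 to HOXD13 lie below 1 TPM.

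The other 36 members summed to 102 ± 20.1 TPM (SD, n = 12), and most of that came from the middle of the clusters. Paralogues 4 to 8 summed to 61.0 ± 12.7 TPM, paralogues 1 to 3 to 18.5 ± 4.91 and paralogues 9 to 13 without HOXC13 to 22.1 ± 3.75. After HOXC13 the highest means were those of HOXC6 (11.0 ± 2.30), HOXB7 (10.3 ± 2.79), HOXC8 (8.75 ± 2.37), HOXD8 (7.16 ± 2.49), HOXC9 (6.18 ± 0.872), HOXD9 (6.16 ± 1.91) and HOXB6 (5.04 ± 1.32), genes of the embryonic trunk. Each neighbouring pair in this order differed by less than the larger of its 2 SDs. In cluster A the highest member was HOXA5 (3.67 ± 0.654), a gene of lung and neck development.

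In all, 25 members reached at least 1 TPM in 2 or more libraries and were tested, 7 of cluster A, 6 of B, 8 of C and 4 of D; the same 25 had a mean of at least 1 and reached 1 TPM in 2 or more libraries outside telogen as well. The other 12 were HOXA9, HOXA10, HOXA11, HOXA13, HOXB1, HOXB5, HOXB13, HOXC10, HOXD1, HOXD11, HOXD12 and HOXD13. Their means lay between 0.164 TPM for HOXB13 and 0.820 TPM for HOXB5. HOXB1, HOXB13, HOXD11, HOXD12 and HOXD13 were listed at 0 in 2, 4, 1, 2 and 3 libraries, and the other 32 members were above 0 in all 12. Within cluster C the level dropped to 0.598 TPM at HOXC10 and 1.03 TPM at HOXC11, then stood at 1.68 TPM at HOXC12, before HOXC13.

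HOXC13 was compared between stages first. The male and female of the earlier month, then the male and female of the later month, had 92.7, 107, 143 and 132 TPM in anagen, 131, 155, 136 and 163 TPM in catagen and 127, 109, 144 and 68.1 TPM in telogen. The stage means were 119 ± 22.9, 146 ± 15.4 and 112 ± 32.5 TPM (SD, n = 4 each), and the groups overlapped: the September male of anagen and the March male of telogen each lay above 2 of the 4 catagen libraries. HOXC13 passed in none of the 3 stage comparisons by limma. The log2 change was 0.32 (95% confidence interval -0.12 to 0.76, adjusted p = 0.441) for catagen against anagen, -0.43 (-0.87 to 0.01, adjusted p = 0.101) for telogen against catagen and 0.12 (-0.32 to 0.56, adjusted p = 0.652) for anagen against telogen. With intervals this wide, the missed threshold does not show equal levels.

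The telogen value moved with single March libraries, and whether it passed also depended on the normalization, as given in the last section. Without the March male, HOXC13 was lower in telogen than in catagen by limma (-0.57, adjusted p = 0.0350), and without the March female the change was -0.22 (adjusted p = 0.298). Without the March female the change for anagen against telogen was also of the other sign, at -0.10. By month the means of 2 libraries were 99.9 TPM in May, 137 in September, 143 in November, 150 in December, 118 in February and 106 in March. No step between neighbouring months passed, and neither did the F test over months (adjusted p = 0.319).

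**Figure D2:**
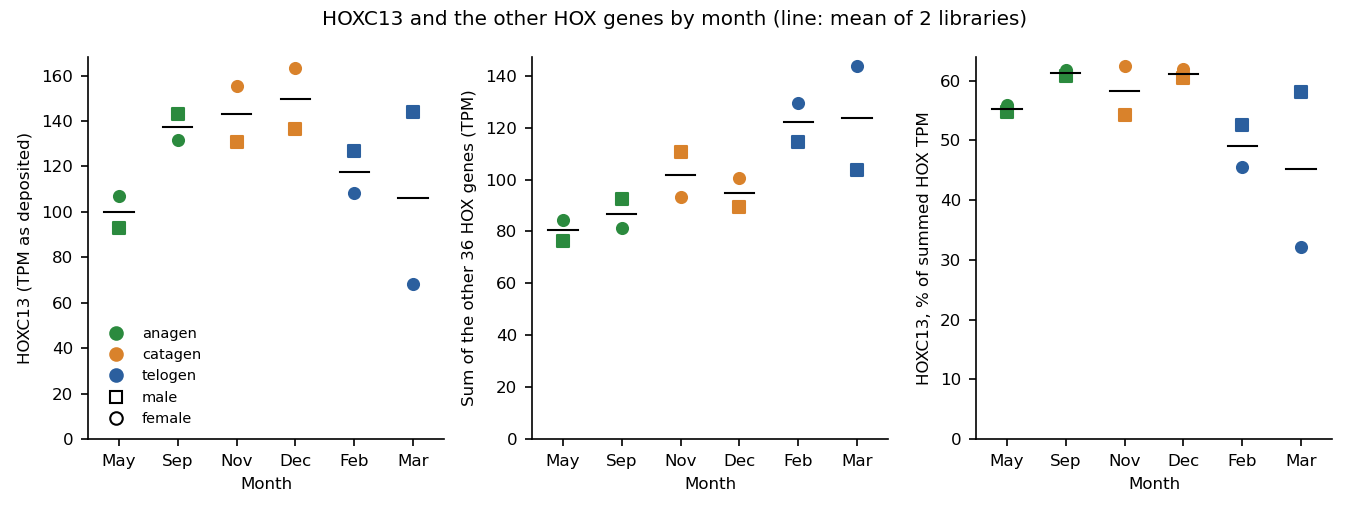
HOXC13 (left), the sum of the other 36 HOX genes (middle) and the share of HOXC13 in the summed HOX signal (right) by month, in TPM as deposited or percent; each point is a library and the line is the mean of the 2 libraries of a month. HOXC13 means lie between 99.9 TPM in May and 150 TPM in December, the other members sum to 76.5 to 92.3 TPM in anagen and 104 to 144 TPM in telogen, and the March female has both the lowest HOXC13 level and the lowest share, 32.1%.

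The other 36 members were then summed per library. They came to 83.7 ± 6.65 TPM in anagen, 98.4 ± 9.26 in catagen and 123 ± 17.6 in telogen (SD, n = 4 each), and the 4 telogen sums, 104 to 144 TPM, all lay above the 4 anagen sums, 76.5 to 92.3 TPM. The ratio of HOXC13 to that sum was 1.41 ± 0.202 in anagen, 1.50 ± 0.218 in catagen and 0.952 ± 0.390 in telogen, with telogen values of 0.474 to 1.39 that overlapped both other stages. Cluster A summed to 14.5 ± 1.78, 15.4 ± 2.55 and 29.2 ± 4.81 TPM in the 3 stages and cluster D to 13.2 ± 2.08, 17.0 ± 2.27 and 24.98 ± 6.98 TPM. Cluster B, at 25.3 ± 4.35, 28.7 ± 2.82 and 28.3 ± 2.79 TPM, had overlapping stages. Cluster C without HOXC13 summed to 30.6 ± 2.07, 37.2 ± 3.16 and 40.4 ± 7.23 TPM, with all 4 anagen libraries (27.6 to 32.1 TPM) below those of catagen (32.6 to 39.3 TPM) and telogen (33.2 to 49.7 TPM), which overlapped. These sums are descriptions; the tests below are per gene.

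Catagen was compared with anagen to see what changes as growth ends. No HOX gene passed: 0 of 25 by limma, in a comparison where 0.0559% of the 16095 tested genes were called. At an unadjusted p under 0.05 there was 1 of 25, against 15.7% of all genes. That 1 was HOXB7, a trunk gene, with 11.6, 10.9, 10.2 and 11.0 TPM in catagen and 5.66, 7.07, 11.5 and 6.63 TPM in anagen. Its catagen libraries were alike, and the September male of anagen lay among them (log2 change 0.49 ± 0.18 SE, adjusted p = 0.268). The median change over the 25 members was 0.17, and -0.02 over all tested genes.

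Telogen was then compared with catagen, to follow the follicle into rest. Of the 25 members, 7 (28%) changed by limma, where 43.6% of all tested genes were called. Of these, 6 were higher in telogen (24%, background 24.5%) and 1 was lower (4%, background 19.0%). The higher ones included HOXA2, HOXA3, HOXA4, HOXC4 and HOXD10, and the lower one was HOXC12, the neighbour of HOXC13. The median change was 0.15 over the 25 members and 0.07 over all tested genes. In cluster B 0 of 6 tested members passed. Among low-numbered paralogues, HOXB2 (-0.37), HOXB3 (0.09) and HOXD3 (0.41, adjusted p = 0.0723) did not pass. For 6 of 25 members (24%, background 19.9%) all 4 telogen libraries lay above all 4 catagen libraries.

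HOXA2, which patterns the hindbrain and the second pharyngeal arch, had 5.91, 5.91, 5.50 and 7.12 TPM in telogen, against 3.29, 1.67, 2.59 and 2.33 TPM in catagen. All 4 telogen libraries lay above all 4 catagen libraries, and the 2 February libraries were equal. The log2 change was 1.05 ± 0.17 (SE, adjusted p = 0.000789 by limma).

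HOXA3, needed for thymus and parathyroid, had 3.17, 3.13, 2.23 and 3.21 TPM in telogen, against 1.58, 1.16, 1.61 and 1.74 TPM in catagen. HOXA4, a gene of the neck vertebrae, had 5.52, 6.80, 2.97 and 7.06 TPM in telogen, against 2.23, 2.33, 1.46 and 2.59 TPM in catagen. In both, the telogen libraries were all above the catagen libraries and the March male was the lowest of telogen. The changes were 0.64 ± 0.13 for HOXA3 (adjusted p = 0.00259) and 1.02 ± 0.20 for HOXA4 (adjusted p = 0.00202). HOXA6, next but one in the cluster, also had 4 telogen libraries (1.40 to 1.81 TPM) above 4 catagen libraries (0.59 to 1.29 TPM), but its change of 0.34 ± 0.15 did not pass (adjusted p = 0.0799). HOXA5, between them, gave 0.25 ± 0.14 (adjusted p = 0.162), and HOXA7 gave -0.07 ± 0.19 (adjusted p = 0.791).

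HOXC4, also known from lymphocytes, had 5.89, 9.09, 4.28 and 9.72 TPM in telogen, against 3.46, 2.45, 3.51 and 3.53 TPM in catagen. All 4 telogen libraries were higher, the 2 females by more than the 2 males (0.91 ± 0.20 SE, adjusted p = 0.00378). HOXD10, a gene of hindlimb motor neurons, had 3.25, 6.75, 2.76 and 4.85 TPM in telogen, against 2.83, 2.74, 2.16 and 1.84 TPM in catagen. Here the March male overlapped catagen (0.62 ± 0.21 SE, adjusted p = 0.0276), and the call was lost in 6 of 26 alternative analyses, among them without the February female (0.43, adjusted p = 0.0841).

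HOXC12, like HOXC13 a gene expressed in the mouse hair matrix, went the other way. It had 1.63, 0.26, 1.34 and 0.17 TPM in telogen, against 2.12, 3.73, 2.26 and 1.63 TPM in catagen. The 2 telogen females were lowest of all 12 libraries, and the February male equalled the December female of catagen. The change was -0.95 ± 0.27 (SE, adjusted p = 0.0140). HOXC13 and HOXC12 thus lay on the same side of 0 in this comparison (-0.43 and -0.95), and of the 2 only HOXC12 passed. HOXC11 beside them gave 0.03 ± 0.19 and HOXC10 was too low to be tested.

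**Figure D3:**
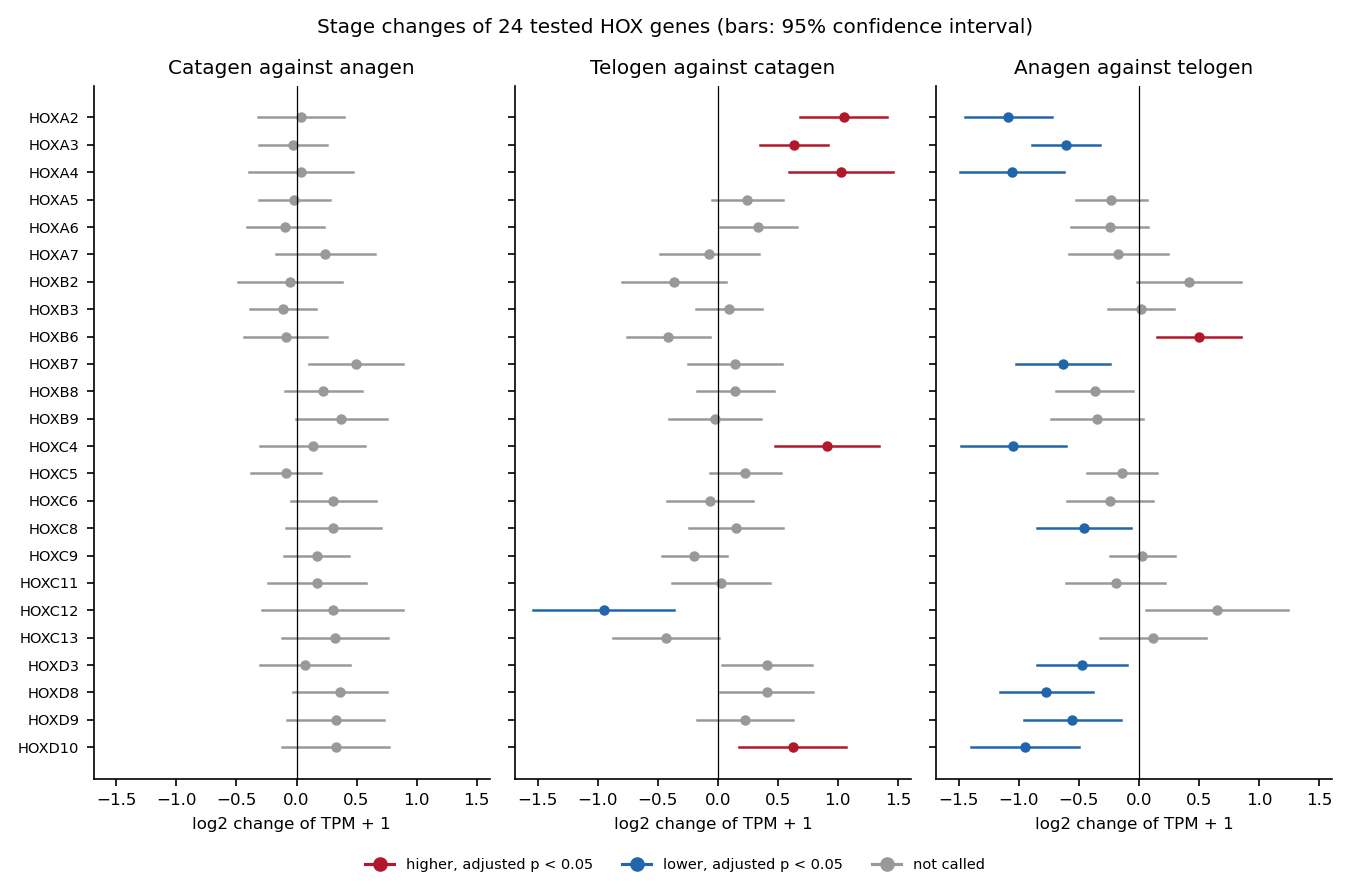
log2 change of TPM + 1 for 24 of the 25 tested HOX genes in catagen against anagen, telogen against catagen and anagen against telogen; points are limma estimates, bars 95% confidence intervals, and colours mark genes higher or lower at an adjusted p under 0.05 over all genes. No member is called in the first panel, HOXC12 is the only one lower in the second and HOXB6 the only one higher in the third.

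Anagen was compared with telogen. As anagen joined May with September, this is wider than the step from rest back to growth, for which May against March is given below. Between anagen and telogen 12 of 25 members (48%) changed by limma, against 52.9% of all tested genes. Of these, 11 were lower in anagen (44%, background 29.2%) and 1 was higher (4%, background 23.7%). The median change was -0.35 over the 25 members, and -0.07 over all tested genes. This comparison shares its telogen libraries with the one above, so it is not a second sample of the same change. In cluster D all 4 tested members were lower in anagen, in cluster C 2 of 8 and in cluster B 1 of 6. All 4 anagen libraries lay below all 4 telogen libraries for 8 of the 25 (32%, background 23.2%), and above them for 1 (4%, background 20.1%).

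The HOXA and HOXC4 calls already named were among the 11. HOXA2 had 3.35, 1.72, 2.45 and 2.03 TPM and gave -1.09 ± 0.17 (adjusted p = 0.000340). HOXC4 had 3.36, 2.32, 2.71 and 3.03 TPM and gave -1.05 ± 0.20 (adjusted p = 0.00110). The anagen libraries of these 2 genes, and those of HOXA3 (1.32 to 1.83 TPM, change -0.61 ± 0.13) and HOXA4 (1.79 to 2.27 TPM, change -1.06 ± 0.20), all lay below the telogen libraries and overlapped those of catagen.

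The 4 tested members of cluster D were lower as well. HOXD8, a trunk gene, had 3.77, 5.19, 6.26 and 5.19 TPM in anagen, against 7.86, 11.9, 6.64 and 11.9 TPM in telogen. HOXD10 had 1.62, 1.87, 2.14 and 1.21 TPM in anagen, against the telogen values of 2.76 to 6.75 TPM given above. Neither gene's groups overlapped, and in both the telogen females were higher than the telogen males. The changes were -0.77 ± 0.18 for HOXD8 (adjusted p = 0.00349) and -0.95 ± 0.21 for HOXD10 (adjusted p = 0.00231). HOXD3, a gene of the upper neck vertebrae, had 0.84, 1.11, 1.07 and 1.19 TPM in anagen, against 1.66, 2.86, 1.49 and 1.58 TPM in telogen, without overlap (-0.48 ± 0.17 SE, adjusted p = 0.0344). The HOXD3 call passed in 18 of 26 alternative analyses. It was lost with quantile normalization (-0.29, adjusted p = 0.183), with median-of-ratios factors, and without the May male, the May female, the September male or the February female.

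HOXB7 had 5.66, 7.07, 11.5 and 6.63 TPM in anagen, against 14.7, 9.23, 11.2 and 14.1 TPM in telogen (-0.63 ± 0.18 SE, adjusted p = 0.0107). HOXD9, a limb gene, had 4.16, 4.09, 5.87 and 4.76 TPM in anagen, against 6.04, 8.42, 5.24 and 10.7 TPM in telogen (-0.55 ± 0.19 SE, adjusted p = 0.0234). HOXC8, found in the dermal papilla of mouse back skin, had 5.63, 6.69, 7.18 and 8.67 TPM in anagen, against 8.40, 9.26, 8.44 and 14.8 TPM in telogen (-0.46 ± 0.18 SE, adjusted p = 0.0492). In each of these 3 genes the groups overlapped through 1 September library of anagen. HOXC8 was the least secure: it passed in 11 of 26 alternative analyses, against 20 for HOXD9 and 24 for HOXB7. All 3 calls were lost without both May libraries, with September alone as anagen. The changes were then -0.43 for HOXB7 (adjusted p = 0.125 by limma), -0.41 for HOXD9 (0.185) and -0.30 for HOXC8 (0.305). HOXB7 was also lost without both March libraries (-0.58, adjusted p = 0.0541).

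HOXB6 was the only member higher in anagen. It had 5.93, 7.60, 5.04 and 4.86 TPM in anagen, against 2.92, 3.73, 3.94 and 4.73 TPM in telogen. The groups did not overlap but met closely at 4.86 TPM in the September female of anagen and 4.73 TPM in the March female of telogen (0.50 ± 0.16 SE, adjusted p = 0.0193). The call passed in 20 of 26 alternative analyses. It was lost with all libraries scaled to the same sum (0.46, adjusted p = 0.0695), also when mitochondrial and ribosomal protein genes were left out of that sum (0.43, adjusted p = 0.0750). Leaving out both May libraries (0.31, adjusted p = 0.189) or both February libraries (0.35, adjusted p = 0.176) lost it too. The same held without the May female (0.39) or the February male (0.41). Its neighbour HOXB7 moved the opposite way in the same comparison. HOXB2 and HOXC12 also had positive changes, 0.42 ± 0.20 (adjusted p = 0.0943) and 0.65 ± 0.27 (adjusted p = 0.0602), and did not pass. The members with the smallest changes were HOXB3, with 0.02 ± 0.13, and HOXC9, with 0.03 ± 0.13; their confidence intervals ran from -0.25 to 0.29 and from -0.24 to 0.30.

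**Figure D4:**
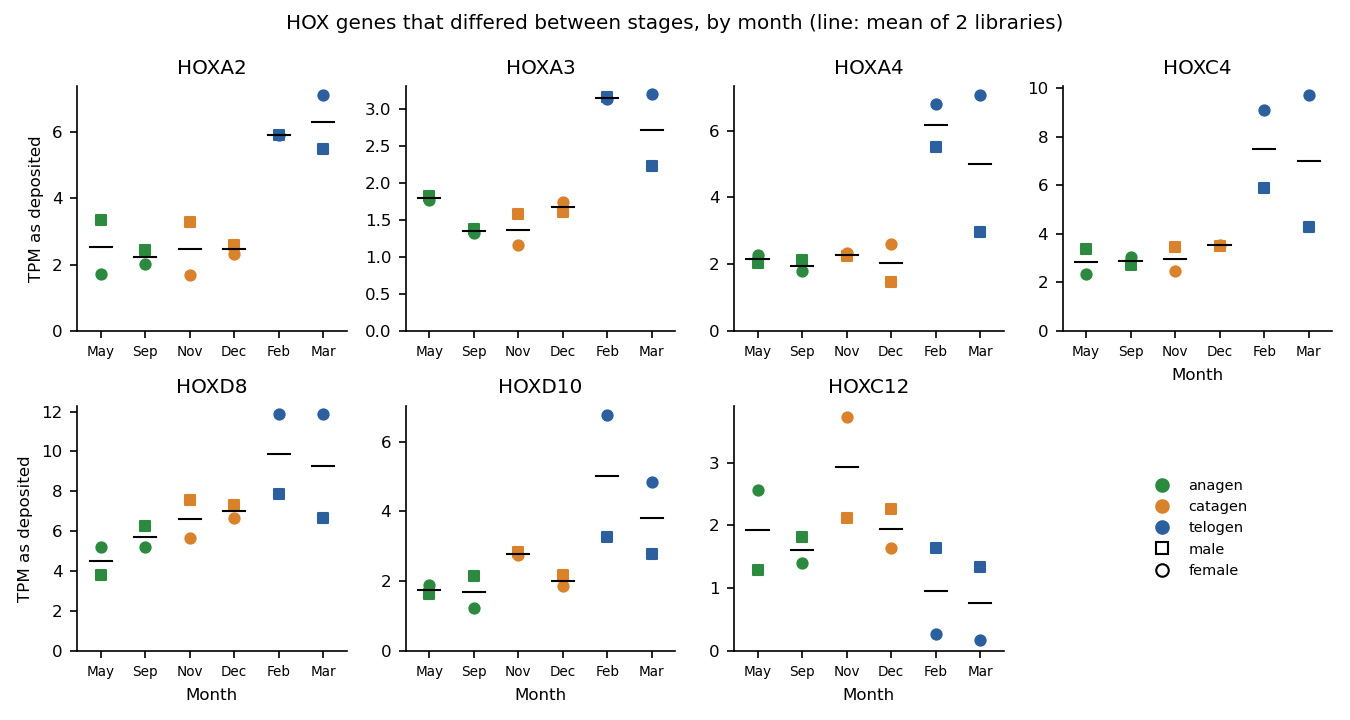
Level of 7 HOX genes that differed between stages, by month, in TPM as deposited; points are libraries and lines are means of the 2 libraries of a month. HOXA2 to HOXA4 and HOXC4 stay at 1.16 to 3.53 TPM from May to December and reach 2.23 to 9.72 TPM in February and March, while HOXC12 is lowest in the 2 telogen females.

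The calls for HOXA2, HOXA3, HOXA4 and HOXC4 in both comparisons with telogen, for HOXC12 in telogen against catagen and for HOXD8 and HOXD10 in anagen against telogen held in 26 of 26 alternative analyses. In some alternatives the estimate could not move, as when a catagen library was left out in anagen against telogen. The largest adjusted p of HOXC12 over the alternatives was 0.0495 by limma, close to the threshold. The March male was the lowest telogen library for HOXA2, HOXA3, HOXA4, HOXC4, HOXD8, HOXD9 and HOXD10. Without it, the telogen against catagen change was 1.09 for HOXA2, 0.73 for HOXA3, 1.25 for HOXA4, 1.11 for HOXC4 and -1.09 for HOXC12. Of the months, February held the highest mean of 10 of the 25 tested members and March that of 6, and May held the lowest mean of 11. The same shares over all tested genes were not computed, so these counts do not set the HOX genes apart.

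Of the month steps, 2 gave any HOX call. February against December called HOXA2, HOXA3 and HOXA4, all higher (3 of 25, 12%; background 16.6% in both directions and 8.90% higher), with changes of 1.00, 0.63 and 1.26 and adjusted p of 0.0347, 0.0388 and 0.0272 by limma. May against March called 6 of 25, all lower (24%; background 27.4% in both directions and 13.4% lower), among them HOXA2, HOXB7, HOXC4, HOXC8 and HOXD8, with changes of -1.08, -0.89, -0.98, -0.77 and -0.87. September against May, November against September, December against November and March against February called 0 of 25 by limma, where 0.137%, 0.0186%, 0% and 0.00621% of all genes were called. At an unadjusted p under 0.05 these 4 steps also had 0 of 25, where 9.77%, 1.86%, 3.65% and 3.95% of all genes had one. The F test over 6 months called HOXA2, HOXA3, HOXA4 and HOXC4, 4 of 25 (16%; background 32.7%), with adjusted p of 0.0159, 0.0210, 0.0259 and 0.0410. These month counts rest on 2 libraries each and moved with single libraries: the count for May against March lay between 0 and 12 with 1 library left out.

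For male against female, with month as a block, 0 of 25 members passed by limma, against a background of 0.0559%. At an unadjusted p under 0.05 there was 1 of 25 (background 7.36%), HOXC8 (-0.30 ± 0.12 SE, adjusted p = 0.637). HOXC13 gave 0.12 for male against female, with an interval of -0.27 to 0.50. The interaction of sex and stage also called 0 of 25 (background 0.00621%), and 5 of 25 (20%) had an unadjusted p under 0.05 against 9.28% of all genes, namely HOXC4, HOXC12, HOXD8, HOXD9 and HOXD10, with adjusted p of 0.421 to 0.470. In telogen HOXC4 stood at 5.89 and 4.28 TPM in males and 9.09 and 9.72 TPM in females, HOXD9 at 6.04 and 5.24 TPM in males and 8.42 and 10.7 TPM in females, and HOXC12 at 1.63 and 1.34 TPM in males and 0.26 and 0.17 TPM in females. Each of these gaps is between pairs of libraries and failed the test across all genes.

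Cofactors that HOX proteins bind were measured next. Of the 9 genes of the TALE families, 8 were in the table and 7 were tested, and in telogen against catagen 6 of 7 were higher, where 24.5% of all tested genes were. PBX3 had 13.7, 17.5, 8.99 and 18.6 TPM in telogen, against 7.27, 4.17, 6.12 and 6.44 TPM in catagen, with the March male again the lowest of telogen and no overlap (1.14, adjusted p = 0.00110 by limma). MEIS1 (0.31), MEIS2 (0.39), PKNOX1 (0.48) and PKNOX2 (0.59) were also higher. PBX2, the most abundant at 46.5 TPM, gave -0.01 (adjusted p = 0.957). In anagen against telogen the same 6 genes were lower (background 29.2%), with the same telogen libraries in both comparisons. In catagen against anagen 0 of 7 passed by limma, also at an unadjusted p under 0.05 (backgrounds 0.0559% and 15.7%). The list median was 0.44 in telogen against catagen, and 0.07 over all tested genes.

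Proteins that keep HOX clusters off or on were followed too. Of 29 Polycomb genes, 7 were higher and 10 lower in telogen against catagen, where 24.5% of all tested genes were higher and 19.0% lower, with a median of -0.01. EZH2, which writes the repressive histone mark, had 41.3 ± 4.11 TPM in telogen and 40.9 ± 3.71 TPM in catagen (SD, n = 4 each) and did not pass (0.01, adjusted p = 0.930), while PHC3 (0.75), PCGF1 (0.73) and PCGF2 (0.82) were higher and CBX6 (-0.83), PHC2 (-0.67) and CBX2 (-0.65) lower. Of 16 Trithorax and demethylase genes, 5 were higher and 1 lower, with a median of 0.24; the higher share is near that over all genes. KMT2A, the methyltransferase that maintains HOX expression, had 17.6 ± 4.58 TPM in telogen and 10.5 ± 0.953 TPM in catagen and rose by 0.66 (adjusted p = 0.00491). KDM6B, which removes the Polycomb mark, did not pass (0.13, adjusted p = 0.496).

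Hair genes known to lie downstream of HOXC13 or beside it were set against it library by library. Of 21 such genes, 12 were in the table and 11 were tested. The 12 included 8 hair keratins: KRT32, KRT35, KRT36, KRT38, KRT39, KRT40, KRT82 and KRT84. The other hair keratins of the list were not in the table, so the keratin sum below leaves them out. In telogen against catagen 7 of 11 were lower and 0 higher (backgrounds 19.0% and 24.5%), with a list median of -0.77. KRT35, a hair cuticle and cortex keratin, had 265 ± 116 TPM in telogen and 529 ± 136 TPM in catagen (-1.07, adjusted p = 0.00850 by limma). KRT32 (-1.22), KRT40 (-1.32), KRT84 (-1.29), KRT36 (-1.09), PADI3, which modifies hair proteins (-0.77), and the transcription factor FOXQ1 (-0.33) were the others. FOXN1, the gene mutated in nude mice and a known HOXC13 target, had 60.8 ± 18.0 TPM in telogen and 65.8 ± 11.8 TPM in catagen and did not pass (-0.15, adjusted p = 0.589). In anagen against telogen 9 of 11 were higher and 0 lower (backgrounds 23.7% and 29.2%), and HOXC13 changed by 0.12 and did not pass.

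**Figure D5:**
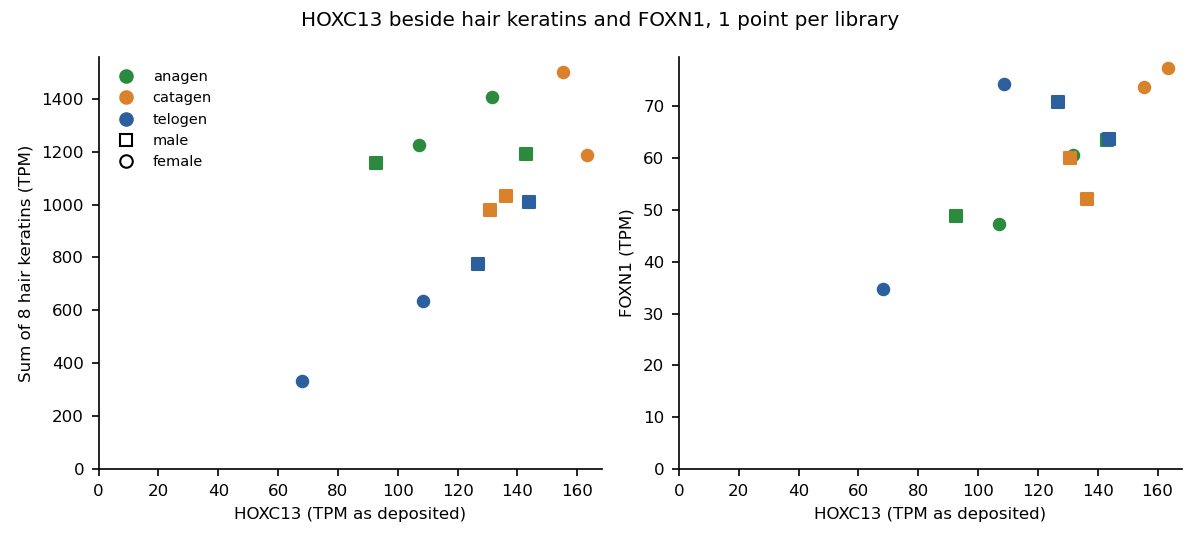
Sum of 8 hair keratins (left) and FOXN1 (right) against HOXC13 in the 12 libraries, TPM as deposited on all axes, coloured by stage with squares for males and circles for females. The March female is lowest on all 3 measures (HOXC13 68.1, keratin sum 333, FOXN1 34.7 TPM), and at like HOXC13 levels the telogen libraries have smaller keratin sums than the anagen libraries.

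The sum of 8 hair keratins had the same order as HOXC13 within telogen, but not within anagen, within catagen or across stages. In anagen the September male had more HOXC13 than the September female (143 and 132 TPM) and a smaller keratin sum (1192 and 1405 TPM). In catagen the same held for the December female beside the November female (HOXC13 163 and 155 TPM, keratin sums 1187 and 1499 TPM). In the telogen libraries it was 774, 635, 1010 and 333 TPM beside HOXC13 levels of 127, 109, 144 and 68.1 TPM. The 2 May libraries, with HOXC13 at 92.7 and 107 TPM, had keratin sums of 1157 and 1226 TPM. The February female, with HOXC13 at 109 TPM, had a keratin sum of 635 TPM. These are 12 libraries in 3 groups, and no relation was tested.

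Over the 12 libraries the genes whose log2 levels were most like that of HOXC13 were FAM107B (Pearson r = 0.96, a description over 12 libraries that share a stage structure), LYPLA1 (0.95), BUD31 (0.94), MALL (0.93), USP38 (0.93), SFN (0.93), C1QBP (0.93), EFHD1 (0.92), EMC4 (0.92) and SLC30A1 (0.92). No HOX gene was among them. Within the family the most alike was HOXC12 (r = 0.67), followed by HOXB9 (0.60), HOXA7 (0.58), HOXC11 (0.56) and HOXB2 (0.46). HOXA5 (-0.60), HOXC4 (-0.58) and HOXA3 (-0.58) had negative values. The order was another one over the 8 anagen and catagen libraries alone. There HOXB9 (0.89), HOXB7 (0.82), HOXC8 (0.77) and HOXD8 (0.71) stood highest, although HOXB7, HOXC8 and HOXD8 had 0.11, -0.24 and -0.31 over the 12. Over the same 8 libraries HOXC12 had 0.34, HOXC4 0.05, HOXA5 -0.47 and HOXA3 -0.56. Among the other members, alike pairs over the 12 libraries were HOXA4 with HOXC4 (r = 0.91), HOXA3 with HOXA4 (0.91) and HOXD8 with HOXD9 (0.90). All genes of these pairs were called in anagen against telogen, so their shared telogen difference enters these values. Pair values without the telogen libraries were not computed.

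Other cell types were followed through their markers, since HOX genes are expressed in many of them. In telogen against catagen, where 24.5% of all tested genes were higher and 19.0% lower, 5 of 8 immune markers were higher and 0 lower, with list sums of 141 to 324 TPM in telogen and 95.4 to 113 TPM in catagen. Of the Schwann cell markers 3 of 6 were higher (42.9 to 80.5 TPM, against 28.8 to 44.5 TPM), of the melanocyte markers 3 of 8 (66.2 to 105 TPM, against 56.0 to 71.8 TPM), of the dermal papilla markers 3 of 15 (105 to 136 TPM, against 98.2 to 117 TPM) and of the sebaceous markers 3 of 7, with 1 lower (1134 to 2148 TPM, against 893 to 1181 TPM). Of the 14 dermal fibroblast markers 0 were higher and 1 was lower (992 to 1894 TPM in telogen, against 893 to 1541 TPM in catagen). Of the inner root sheath markers 3 of 5 were lower and 1 was higher, and of the outer root sheath and basal markers 2 of 9 were lower and 2 higher. Of the endothelial markers 2 of 8 and of the smooth muscle markers 2 of 7 were lower, of the interfollicular epidermis markers 1 of 6 was higher, and of the skeletal muscle markers 0 of 11 passed by limma, also at an unadjusted p under 0.05.

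In anagen against telogen, where 29.2% of all tested genes were lower and 23.7% higher, these lists had calls as well. Lower in anagen were 4 of 8 immune (98.4 to 145 TPM in anagen, against 141 to 324 TPM in telogen), 3 of 6 Schwann cell and 4 of 8 melanocyte markers, with 0 higher in each. Of the sebaceous markers 4 of 7 were lower and 1 higher, of the dermal papilla markers 5 of 15 and 1, of the endothelial markers 3 of 8 and 1, and of the outer root sheath and basal markers 4 of 9 and 3. Of the skeletal muscle markers 3 of 11 were higher and 0 lower (180 to 335 TPM in anagen, against 72.1 to 127 TPM in telogen). Some varied widely among the anagen libraries, such as MYLPF (32.1 ± 36.1 TPM, SD, n = 4) and TNNC2 (35.0 ± 39.6). Much of the anagen sum came from TPM2 (64.1 ± 26.8) and DES (54.6 ± 39.3), and DES is also in the smooth muscle list. Of the inner root sheath markers 3 of 5 were higher and 1 lower, and of the smooth muscle and epidermis markers 1 of 7 and 1 of 6 were higher. Of the 14 dermal fibroblast markers 0 passed by limma, and 2 had an unadjusted p under 0.05. The part of these cell types in the HOX changes was not tested.

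Some reads may be shared between loci. HOXB8 and HOXB9 overlap each other in the annotation, and HOXA3, HOXA4, HOXA5, HOXA6 and HOXB3 each overlap a long noncoding RNA locus that is not in the table, and whether the quantification used strand is not given in the sources used here. HOXB8 and HOXB9 passed in none of the stage comparisons; in anagen against telogen HOXB8 (-0.37, adjusted p = 0.0517) passed in 7 of 26 alternative analyses and HOXB9 (-0.35, adjusted p = 0.110) in 1. The calls of HOXA3 and HOXA4 carry this limit. HOXA2, HOXC4, HOXC12, HOXD8 and HOXD10 overlap no other locus in the annotation. Only overlap of loci was looked at, so reads shared through like sequences were not examined for any member.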

How the data were processed

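One value per gene was deposited for each of 12 libraries under the heading TPM. The deposited signal sums to 904623 to 1127797 per library, so the authors' values had been rescaled by a step not described. RNA was extracted with RNAiso Plus per the labels' protocols; kallisto 0.46.1 and sleuth 0.30.0 are named per the submitters' processing notes. The genome build is not given in the sources used here, and read depth is unknown. Symbols came from RefSeq (ARS1.2) by gene ID, which matched 20294 of 20326 genes and all 37 HOX genes.

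Genes with at least 1 in at least 2 libraries (16095) were fitted as log2(value + 1) in limma 3.58.1 (R 4.3.3) with a mean-variance trend, 4 libraries per stage or 2 per month, and Benjamini-Hochberg adjustment over all genes at 0.05. Adding 1 understates changes of low genes. Sex was tested with month as a block. The fits were also run on simulated data with independent values and few changed genes. That setting was unlike the telogen comparisons, so nothing is concluded from it here. No 2 libraries shared more than 1.55% of their values. All members with a mean of at least 1, all called members and the 10 genes most like HOXC13 (mean of at least 5) were named; list genes are examples. Of the items called, 1 member and 1 list gene are not reported here and stand only within counts and sums. The members and lists were chosen with earlier results of these data known.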

Additional observations from a re-analysis of the deposited data

Results flagged for a closer look

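In 6 of 81 groups of 4 libraries (the 25 tested members, the sum of the other 36 and the share of HOXC13 in each stage), 1 library stood apart from the other 3 by more of the group's range than Dixon's 95% critical value; chance gives about 1 in 20. HOXC11 was 0.54 TPM in the May male and 0.91 to 0.98 TPM in the other anagen libraries. HOXC4 was 2.45 TPM in the November female and 3.46 to 3.53 TPM in the other catagen libraries. In telogen, HOXA3 was 2.23 TPM in the March male, against 3.13 to 3.21 TPM in the others. HOXA6 was 1.81 TPM in the February female, against 1.40 to 1.43 TPM. HOXC8 was 14.77 TPM in the March female, against 8.40 to 9.26 TPM. HOXD3 was 2.86 TPM in the February female, against 1.49 to 1.66 TPM. Without the library named, HOXC8 and HOXD3 no longer passed in anagen against telogen, at -0.28 (adjusted p = 0.148 by limma) for HOXC8 and -0.33 (adjusted p = 0.112) for HOXD3, and HOXA3 still passed.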

How the results depend on the processing

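The counts of 0 called for catagen against anagen, sex, the interaction and 4 month steps held under every alternative run, anagen against telogen gave 8 to 15 members and no result with a call changed sign. The share of all genes called in anagen against telogen moved as well, from 33.9% without both February libraries to 54.9% without the March male. Telogen against catagen gave 11 of 37 with no filter (HOXA9, HOXD11, HOXD12 and HOXD13, all under 1 TPM, were added), where 43.0% of all genes were called. Over all alternatives it gave 6 to 11. The share of all genes called then ran from 19.7% without both February libraries to 47.8% without the March male. May against March gave 3 with no filter and 3 with median-of-ratios factors, and 0 to 12 with 1 library left out. The F test gave 2 with quantile normalization, 7 without both March libraries, 0 without both February libraries (an alternative chosen after seeing the data) and 1 to 10 with 1 library left out. February against December gave 5 without both March libraries and 0 to 5 with 1 library left out. For these month steps and the F test the shares over all genes under the alternatives are not given here. The moves in their counts therefore do not set the HOX genes apart. HOXC13 in telogen against catagen passed with median-of-ratios factors (-0.53) and ran from -0.57 to -0.22 with 1 library left out; in anagen against telogen it ran from -0.10 to 0.25. The cause of these moves was not tested. Deviations of libraries of the same sex and number correlated at -0.57 to 0.24 (median 0.03), so the numbers were not taken as pairs, and whether they mark shared animals is not known; a replicate block gave 7, 12 and 3 members in telogen against catagen, anagen against telogen and the F test, and left the HOXC13 changes at 0.32, -0.43 and 0.12. Calls lost in some alternatives were those of HOXB6, HOXB7, HOXC8, HOXD3 and HOXD9 in anagen against telogen and HOXD10 in telogen against catagen. As depth is unknown, no counting error can be given for the members below 1 TPM.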
